A study of Homo sapiens with 9 samples.

Results

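Non-homologous end joining is described here through 9 genes of the pathway: PRKDC, XRCC5, XRCC6, LIG4, XRCC4, NHEJ1, DCLRE1C, TP53BP1 and RIF1. They were chosen by function and matched by symbol to Ensembl identifiers in a table of 57905 genes, in which each had 1 identifier. All 9 were among the 13252 genes with enough reads to be tested. The measurements are poly(A) RNA sequencing of KYSE180, a human oesophageal squamous cell carcinoma line that the series calls KDM6A-deficient, so the control cells share that deficiency. KDM6A is an H3K27 demethylase, and EZH2 is the methyltransferase that places the same mark. The 3 groups had 3 libraries each: cells with the short hairpin RNA shEZH2#1, cells with the hairpin shEZH2#3, and cells with the control hairpin shluc. The titles name hairpins, which lower a transcript, while the genotype label of the EZH2 hairpin cells reads EZH2 knockout and that of the shluc cells reads WT. All cells, shluc included, had received 6 Gy of ionizing radiation, so no value here contrasts irradiated with unirradiated cells. The labels do not say that the 3 libraries of a group came from separate cultures, and p-values may then measure technical spread.

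Non-homologous end joining rejoins the ends of a DNA double-strand break without a homologous template and is the main route of repair outside S and G2 phase. The Ku ring, made of the XRCC5 and XRCC6 proteins, slides onto the ends and recruits DNA-PKcs, the large kinase encoded by PRKDC. Artemis, encoded by DCLRE1C, opens or trims ends under DNA-PKcs, and ligase IV with its partners XRCC4 and XLF, the NHEJ1 product, seals them. 53BP1, encoded by TP53BP1, and its effector RIF1 bind chromatin near the break and hold back the resection that would commit the break to homologous recombination.

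EZH2 itself had 11.6, 11.4 and 7.28 CPM in the shEZH2#1 libraries and 9.67, 11.0 and 9.11 CPM in the shEZH2#3 libraries, against 18.4, 20.1 and 19.5 CPM in the shluc libraries. CPM are counts set relative to the library total, scaled by TMM, an adjustment for library composition. Both hairpins lowered EZH2, by a log2 fold change of -0.94 ± 0.18 (SE) for shEZH2#1 (adjusted p = 0.00163) and -0.96 ± 0.18 for shEZH2#3 (adjusted p = 0.000433). The libraries held 14958011 to 21152006 counts. The 2 most abundant genes without a symbol took 15.8% to 22.6% of them in shEZH2#1 and 5.97% to 11.6% in shEZH2#3, against 6.96% to 9.28% in shluc. The TMM factors also differed by group, at 0.91 to 1.05 in shEZH2#1 and 0.827 to 0.889 in shEZH2#3, against 1.11 to 1.33 in shluc. The summed level of 6 squamous epithelium markers was at most 1.39 CPM in shEZH2#1, 1.37 CPM in shEZH2#3 and 1.61 CPM in shluc, and none of the 6 exceeded 1.03 CPM in any library. The labelled squamous identity was therefore not visible in its defining transcripts. The epithelial markers EPCAM and CDH1 summed to 6.53 to 7.73 CPM in shEZH2#1 and 3.2 to 4.24 CPM in shEZH2#3, against 8.77 to 9.21 CPM in shluc. With shEZH2#1 neither was called, EPCAM at -0.90 (adjusted p = 0.0657) and CDH1 at 0.01 (adjusted p = 0.971). Both fell with shEZH2#3 (-1.87 and -0.99, adjusted p = 0.000461 and 0.00149). Of 4 fibroblast markers PDGFRA was at 0 and COL3A1 was at most 0.955 CPM in any library. With COL1A1 and DCN they summed to 48.5 to 53.8 CPM in shEZH2#1 and 70.8 to 109 CPM in shEZH2#3, against 53.2 to 61.9 CPM in shluc. Within that sum, COL1A1 fell (-0.84, adjusted p = 0.00115) and DCN rose (1.15, adjusted p = 0.00311) with shEZH2#1, and both rose with shEZH2#3 (0.53 and 0.71, adjusted p = 0.00901 and 0.0228). CDH5, an endothelial marker, ranged over 7.13 to 7.92 CPM in shEZH2#1 and 27 to 31.7 CPM in shEZH2#3, against 13.4 to 19.7 CPM in shluc. Of 3 blood markers PTPRC and CD3E were at 0, and CD14 was at most 0.436 CPM in any library. The part of these marker differences in the results on end joining genes was not tested. In bulk RNA, fewer cells expressing a gene and less of its RNA per cell cannot be told apart.

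Across the 9 genes the level per kilobase of transcript spanned almost the whole range of the tested genes. In shluc cells XRCC6 was the most abundant at 211 ± 7.44 CPM per kilobase (SD, n = 3), the percentile 98.0 of tested genes. XRCC5 stood at 16.2 ± 1.31 and PRKDC at 13.9 ± 5.11 CPM per kilobase, and these neighbours overlapped. NHEJ1 followed at 6.83 ± 0.746 and TP53BP1 at 3.00 ± 0.775 CPM per kilobase. The 4 remaining genes were scarce, and each overlapped the next in order: XRCC4 at 0.505 ± 0.264, LIG4 at 0.402 ± 0.0525, DCLRE1C at 0.374 ± 0.144 and RIF1 at 0.263 ± 0.0618 CPM per kilobase. The Ku subunits and the kinase were thus far more abundant as RNA than the ligase, its partner XRCC4 and the nuclease. In the shEZH2#1 cells XRCC5 (13.1 to 14.4 CPM per kilobase) stood above PRKDC (6.75 to 7.86 CPM per kilobase) without overlap, and in the shEZH2#3 cells XRCC5 (7.33 to 10.5 CPM per kilobase) also stood above PRKDC (5.92 to 6.94 CPM per kilobase). Lengths are those of the longest protein-coding transcript, so a gene whose cells use a shorter form is set too low on this scale.

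With shEZH2#1, 2 of the 9 genes fell, PRKDC and XRCC6, and none rose, where 7.89% of all tested genes were called lower and 11.2% higher (edgeR quasi-likelihood test, adjusted p below 0.05 over all tested genes). With shEZH2#3, 4 of the 9 fell, PRKDC, XRCC5, NHEJ1 and TP53BP1, and none rose, where 19.8% of tested genes were called lower and 24.4% higher. The CPM of 6 of the 9 lay below every shluc library without overlap in the shEZH2#1 libraries, against 18.9% of tested genes. The count without overlap was also 6 of 9 for shEZH2#3, against 26.0% of tested genes. None of the 9 lay above shluc without overlap, as 18.3% of tested genes did with shEZH2#1 and 26.9% with shEZH2#3. The median log2 fold change of the 9 was -0.39 with shEZH2#1, where the median of all tested genes was -0.07. With shEZH2#3 it was -0.71, where the median of all tested genes was -0.01. Both comparisons use the same 3 shluc libraries.

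**Figure D1:**
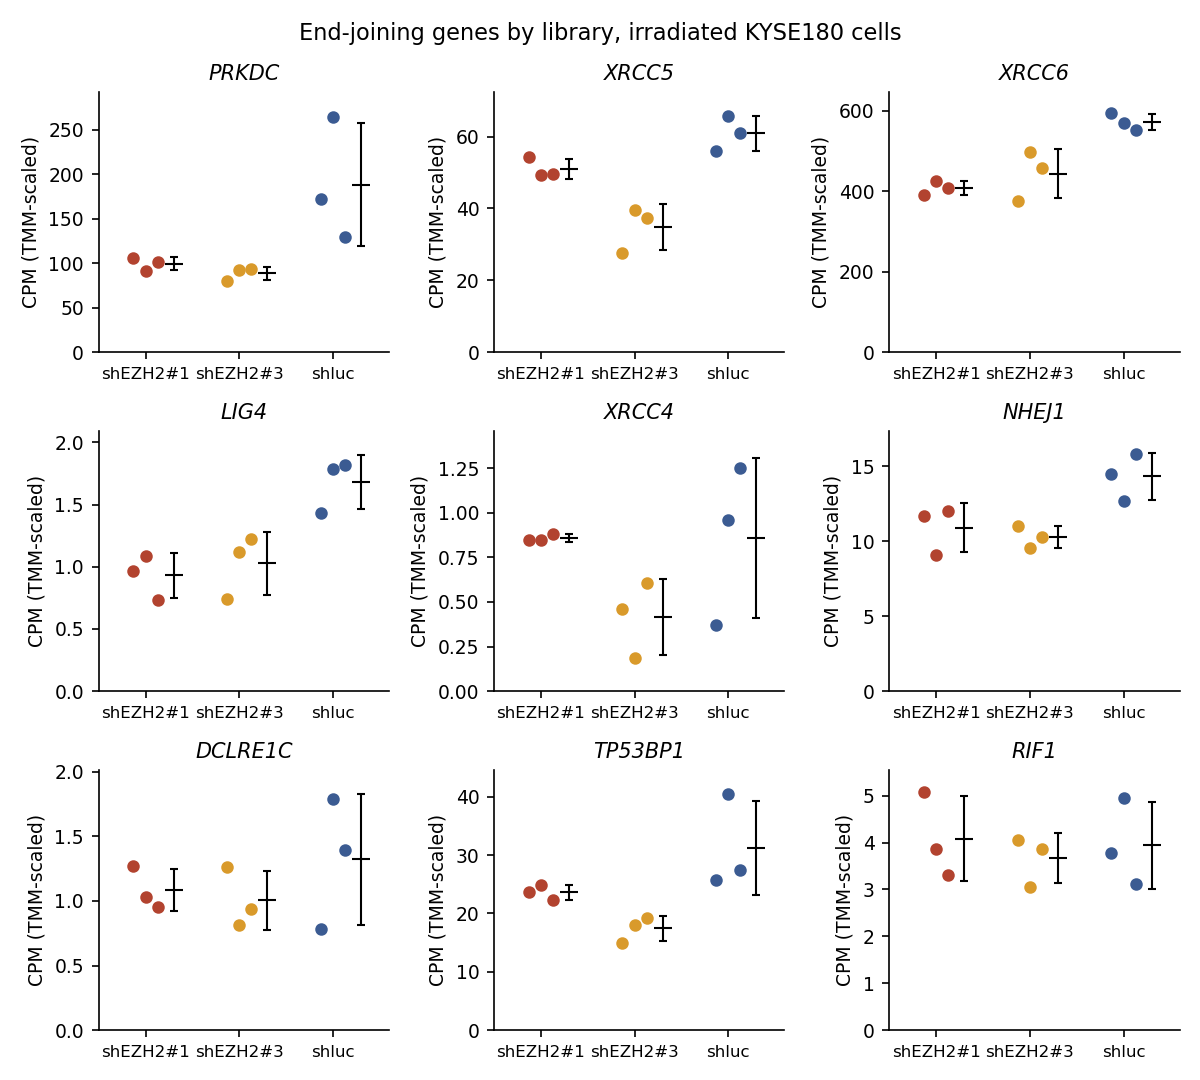
TMM-scaled CPM of the 9 end joining genes (vertical axes, each from 0) in the 9 irradiated libraries, grouped as shEZH2#1, shEZH2#3 and shluc; points are libraries, and the bars show the mean and SD of 3. PRKDC lay at 79.9 to 106 CPM in the hairpin libraries and at 129 to 264 CPM in shluc, while RIF1 overlapped in all 3 groups.

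PRKDC, the kinase that pairs with Ku at the break, had 106, 91.1 and 101 CPM in the shEZH2#1 libraries and 79.9, 92.2 and 93.8 CPM in the shEZH2#3 libraries, against 172, 264 and 129 CPM in the shluc libraries. All 6 EZH2 hairpin libraries lay below all 3 shluc libraries, among which replicate 2 stood highest. The level was 52.8% of shluc with shEZH2#1 (log2 fold change -0.92 ± 0.20, adjusted p = 0.00325). It was 47.1% of shluc with shEZH2#3 (-1.09 ± 0.20, adjusted p = 0.000321). The hairpins differed from each other by 0.16 ± 0.20 (adjusted p = 0.579). PRKDC was called lower in each of the 11 other planned fits and each of the 9 fits that left out 1 library, for either hairpin. Without shluc replicate 2 the log2 fold change was -0.61 with shEZH2#1 and -0.77 with shEZH2#3. The gene occupies chr8:47773108-47960183 on the minus strand of GRCh38, and its longest transcript has 13509 nucleotides.

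The genes whose log2 CPM followed PRKDC most closely over the 9 libraries, of 13251 compared, were OSBP (Pearson r = 0.994), MYOF (0.991), ZNF275 (0.988), RNF111 (0.986) and SSTR1 (0.98). These values share the same libraries and group differences and are a description only. OSBP, an oxysterol-binding protein, had a log2 fold change of -0.61 ± 0.17 with shEZH2#1 (adjusted p = 0.0185) and -0.71 ± 0.17 for shEZH2#3 (adjusted p = 0.00307).

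The Ku genes came next. XRCC5, the larger Ku subunit (Ku80), had 54.3, 49.3 and 49.6 CPM in the shEZH2#1 libraries and 27.6, 39.5 and 37.3 CPM in the shEZH2#3 libraries, against 55.9, 65.7 and 61.0 CPM in the shluc libraries. The 3 groups did not overlap: shEZH2#3 was lowest, replicate 1 most of all, and shEZH2#1 lay just under shluc. XRCC5 fell with shEZH2#3 to 57.1% of shluc (log2 fold change -0.81 ± 0.16, adjusted p = 0.000531). With shEZH2#1 the difference was -0.25 ± 0.15 and missed the threshold (adjusted p = 0.264). It was the 1 member called between the hairpins, higher in shEZH2#1 than in shEZH2#3 by 0.55 ± 0.16 (adjusted p = 0.0141), where 9.46% of tested genes were called higher and 15.5% lower. Fits that left out replicate 1 of shEZH2#1 or of shEZH2#3 lost that call (adjusted p = 0.0524 and 0.0726).

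XRCC6, the smaller Ku subunit (Ku70), had 391, 427 and 408 CPM in the shEZH2#1 libraries and 377, 498 and 458 CPM in the shEZH2#3 libraries, against 594, 571 and 553 CPM in the shluc libraries. The hairpin groups overlapped each other and both lay below shluc. XRCC6 fell with shEZH2#1 to 71.4% of shluc (log2 fold change -0.49 ± 0.15, adjusted p = 0.0281). With shEZH2#3 it was at -0.37 ± 0.15, just short of the threshold (adjusted p = 0.0531), and it passed in 6 of 11 other planned fits, DESeq2 among them (adjusted p = 0.034). The hairpins differed from each other by -0.12 ± 0.15 (adjusted p = 0.595). The shEZH2#1 call was lost without shEZH2#1 replicate 1, 2 or 3 (adjusted p = 0.0545, 0.0842 and 0.105) and without shluc replicate 1 (adjusted p = 0.0766), with log2 fold changes from -0.52 to -0.46. Of 5 processed pseudogenes of XRCC6 in the table, XRCC6P2 had 3 to 19 counts, XRCC6P1 had 0 to 3 counts and the others had none. How reads that match several places were counted is not given in the sources used here.

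As proteins the Ku subunits act as a dimer, and the ratio of their transcripts per kilobase was therefore taken within each library, which removes the library scaling. XRCC5 over XRCC6 averaged 0.0902 ± 0.00878 in shEZH2#1 and 0.0561 ± 0.00306 in shEZH2#3, against 0.0767 ± 0.00792 in shluc (SD, n = 3 each). No library of one group overlapped another group, with shEZH2#1 above and shEZH2#3 below shluc. The ratio keeps any effect of GC content, which is 44.2% in XRCC5 and 50.7% in XRCC6. In the fit with the GC and length trend of each library removed, XRCC5 and XRCC6 were at -0.38 and -0.35 with shEZH2#3, so the lower ratio there was not seen, and at -0.05 and -0.38 with shEZH2#1. An exact two-sided permutation test gave p = 0.1 for each pair of groups, the smallest value that 3 libraries against 3 allow. PRKDC was set in the same way against MTOR, another kinase of its family. That ratio averaged 1.11 ± 0.07 in shEZH2#1 and 1.03 ± 0.062 in shEZH2#3, against 1.68 ± 0.207 in shluc, again without overlap with shluc (exact permutation p = 0.1 for either hairpin). MTOR itself was not called, at -0.31 with shEZH2#1 and -0.36 with shEZH2#3. Other kinases of the family did fall, TRRAP with shEZH2#1 (-0.88), and SMG1 (-1.08) and ATR (-1.21) with shEZH2#3. The ratio to MTOR therefore does not set PRKDC apart from its family. PRKDC over XRCC6 averaged 0.0489 ± 0.00589 in shEZH2#1 and 0.0402 ± 0.00277 in shEZH2#3, against 0.0659 ± 0.024 in shluc. It overlapped shluc for shEZH2#1 (exact permutation p = 0.3) and not for shEZH2#3 (exact permutation p = 0.1).

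Of the ligation genes, LIG4 and XRCC4 had few counts and were not called. LIG4, the catalytic ligase, had 16, 18 and 10 counts in the shEZH2#1 libraries and 13, 18 and 22 counts in the shEZH2#3 libraries, against 31, 45 and 38 counts in the shluc libraries. Scaled to 0.735 to 1.09 CPM in shEZH2#1 and 0.744 to 1.22 CPM in shEZH2#3, every hairpin library lay below the 1.43 to 1.82 CPM of shluc. The log2 fold changes, -0.84 ± 0.39 (adjusted p = 0.135) and -0.71 ± 0.38 (adjusted p = 0.132) for shEZH2#1 and shEZH2#3, did not pass the test. XRCC4, the scaffold that stabilizes the ligase, had 14, 14 and 12 counts in the shEZH2#1 libraries and 8, 3 and 11 counts in the shEZH2#3 libraries, against 8, 24 and 26 counts in the shluc libraries. Its shluc libraries spanned the shEZH2#1 group and overlapped the shEZH2#3 group, whose replicate 2 was lowest. The differences of 0.00 ± 0.53 (adjusted p = 0.999) and -1.01 ± 0.56 (adjusted p = 0.144) for shEZH2#1 and shEZH2#3 did not pass the test.

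NHEJ1, whose product XLF bridges the ends with XRCC4, had 11.7, 9.06 and 12.0 CPM in the shEZH2#1 libraries and 11.0, 9.54 and 10.3 CPM in the shEZH2#3 libraries, against 14.5, 12.7 and 15.8 CPM in the shluc libraries. Every hairpin library lay below every shluc library, and the hairpin groups overlapped. NHEJ1 fell with shEZH2#3 to 72.2% of shluc (log2 fold change -0.47 ± 0.17, adjusted p = 0.0317), and with shEZH2#1 it was at -0.39 ± 0.17 (adjusted p = 0.119). The call rested on few libraries: without shEZH2#3 replicate 2 or 3 the adjusted p was 0.11 or 0.07, and without shluc replicate 1 or 3 it was 0.0673 or 0.0934. Another annotated gene, ENSG00000280537, shares 2034 exonic bases with NHEJ1 on the same strand. That gene has no entry in the deposited counts, so NHEJ1 counts may include its reads.

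DCLRE1C, the Artemis nuclease, had 21, 17 and 13 counts in the shEZH2#1 libraries and 22, 13 and 17 counts in the shEZH2#3 libraries, against 17, 45 and 29 counts in the shluc libraries. The 3 groups overlapped, and neither -0.29 ± 0.42 with shEZH2#1 (adjusted p = 0.673) nor -0.40 ± 0.42 with shEZH2#3 (adjusted p = 0.442) passed the test. SUV39H2, an H3K9 methyltransferase that overlaps DCLRE1C by 159 exonic bases on the other strand, was at -0.38 ± 0.29 with shEZH2#1 (adjusted p = 0.381) and fell by 1.29 on the log2 scale with shEZH2#3 (adjusted p = 0.00247).

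Of the 2 chromatin-bound factors, TP53BP1 passed the test with shEZH2#3 and RIF1 with neither hairpin. TP53BP1 had 23.7, 24.9 and 22.3 CPM in the shEZH2#1 libraries and 15.0, 18.1 and 19.2 CPM in the shEZH2#3 libraries, against 25.7, 40.4 and 27.5 CPM in the shluc libraries. The groups did not overlap, with shEZH2#3 lowest and shEZH2#1 between it and shluc. TP53BP1 fell with shEZH2#3 to 55.8% of shluc (log2 fold change -0.84 ± 0.18, adjusted p = 0.0011), and was at -0.40 ± 0.18 with shEZH2#1 (adjusted p = 0.117). Between the hairpins the difference of 0.44 ± 0.18 did not pass (adjusted p = 0.0783), though it passed without shluc replicate 2 (adjusted p = 0.0214). RIF1 had 5.08, 3.86 and 3.31 CPM in the shEZH2#1 libraries and 4.06, 3.06 and 3.87 CPM in the shEZH2#3 libraries, against 3.78, 4.94 and 3.11 CPM in the shluc libraries. All 3 groups overlapped, with 0.05 ± 0.25 for shEZH2#1 (adjusted p = 0.913) and -0.11 ± 0.25 for shEZH2#3 (adjusted p = 0.741). TUBGCP4, a gamma-tubulin complex gene, shares 3732 exonic bases with TP53BP1 on the other strand and fell by 0.59 on the log2 scale with shEZH2#3 (adjusted p = 0.0212). TUBGCP4 lost that call with the GC and length trend of each library removed (-0.17, adjusted p = 0.44). The strand setting of the counting is not given in the sources used here, so reads in the shared bases may have gone to either gene.

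**Figure D2:**
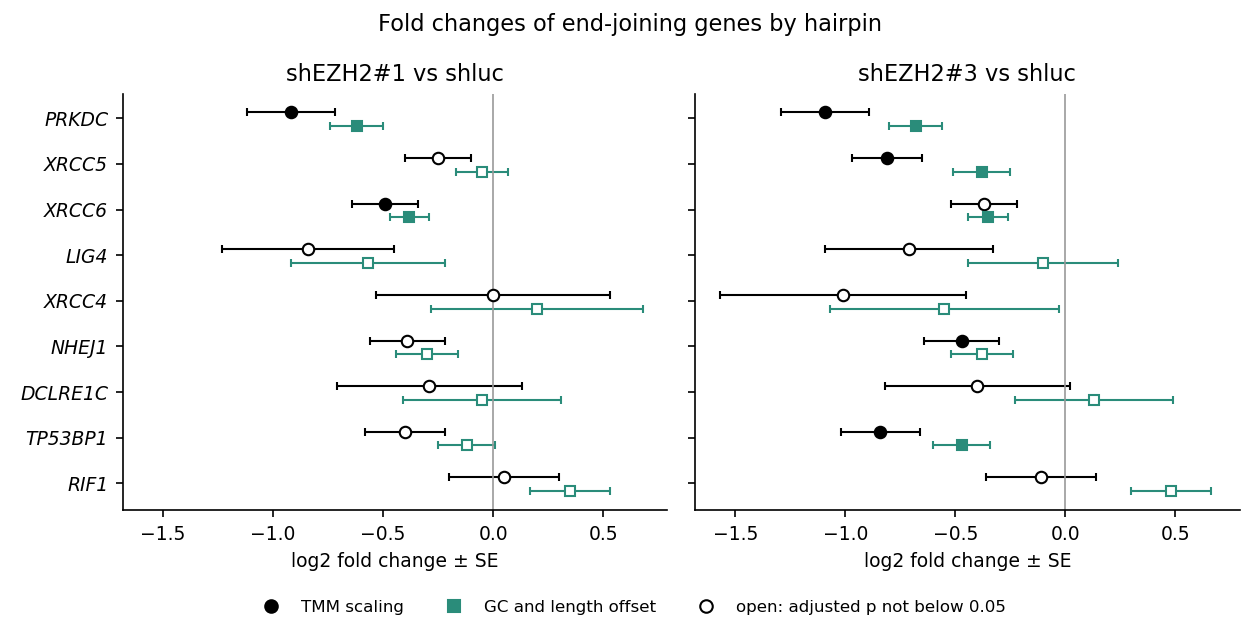
Log2 fold change with its SE (horizontal axis) of the 9 genes for shEZH2#1 against shluc (left) and shEZH2#3 against shluc (right); circles are the TMM-scaled fit, squares the fit with the GC and length trend of each library removed, and filled symbols have an adjusted p below 0.05. PRKDC is filled in all 4 fits, at -0.92 and -1.09 with TMM and at -0.62 and -0.68 with the trend removed.

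The starts of NHEJ1, TP53BP1 and RIF1 are shown because the first 2 fell with shEZH2#3 while RIF1 had no detectable difference. Each sequence is a part, free of annotated exons, of the 250 bases upstream of a RefSeq start (GRCh38.p14). Exons of the gene itself were also left out. Each sequence therefore ends at the last base before the gene's own start in the annotation used for gene positions. Being shorter than 250 bases, it need not reach the RefSeq start. Capitals mark GC boxes (GGGCGG, or CCGCCC for the other strand), to which SP family factors bind, and CCAAT boxes (CCAAT, or ATTGG for the other strand), bound by NF-Y. The pieces are chr2:219160866-219161065 on the minus strand for NHEJ1, chr15:43510729-43510890 on the minus strand for TP53BP1 and chr2:151409652-151409882 on the plus strand for RIF1.
NHEJ1: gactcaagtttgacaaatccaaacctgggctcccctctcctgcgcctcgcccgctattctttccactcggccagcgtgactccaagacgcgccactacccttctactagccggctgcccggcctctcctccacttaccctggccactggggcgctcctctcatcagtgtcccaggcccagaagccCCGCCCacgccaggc
TP53BP1: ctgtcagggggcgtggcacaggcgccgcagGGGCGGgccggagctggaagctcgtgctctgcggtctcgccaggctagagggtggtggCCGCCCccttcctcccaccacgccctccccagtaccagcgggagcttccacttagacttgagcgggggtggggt
RIF1: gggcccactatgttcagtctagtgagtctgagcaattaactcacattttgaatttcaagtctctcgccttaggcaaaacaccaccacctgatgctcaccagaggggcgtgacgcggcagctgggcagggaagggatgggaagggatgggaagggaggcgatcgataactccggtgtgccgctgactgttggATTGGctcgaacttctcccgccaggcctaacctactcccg
The 200 bases of NHEJ1 hold 1 GC box, as do 35% of 35116 RefSeq windows cut to that length, and the 162 bases of TP53BP1 hold 2, where 28% of windows hold any. The 231 bases of RIF1 hold no GC box and 1 CCAAT box, a motif found in 30.8% of windows of that length. A second piece found for NHEJ1 also held 1 GC box. Of the genes not called, DCLRE1C held 1 GC box and 2 CCAAT boxes. LIG4 held 1 GC box in some of its pieces and 1 CCAAT box in others. The pieces of XRCC6 and XRCC4, of 22 and 24 bases, held neither motif. Whether the motifs go with the calls was not tested. A match describes these letters and shows no binding.

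The libraries differed in how a gene's level depended on its GC content. Across tested genes, Spearman's rho between GC and the deviation of a library from the mean of all 9 ran from -0.25 to 0.25 in shEZH2#1 and 0.37 to 0.64 in shEZH2#3, against -0.69 to -0.39 in shluc. The 9 end joining genes had a median GC content of 44.2%, below the 50.3% of all tested genes, and this trend moves with the groups. Removing each library's GC and length trend took the median log2 fold change of the 9 to -0.12 with shEZH2#1 and -0.38 with shEZH2#3, where all tested genes had -0.02 in both. The counts called stayed at 2 and 4, where 9.95% and 12.1% of tested genes were called lower. The 2 were the same genes with shEZH2#1, while with shEZH2#3 NHEJ1 dropped out and XRCC6 came in. PRKDC kept its call at -0.62 (adjusted p = 0.00239) with shEZH2#1 and -0.68 (adjusted p = 0.000874) with shEZH2#3. XRCC6 was called with both, at -0.38 (adjusted p = 0.0114) and -0.35 (adjusted p = 0.0145). With shEZH2#3, XRCC5 (-0.38, adjusted p = 0.0396) and TP53BP1 (-0.47, adjusted p = 0.0157) kept their calls and NHEJ1 did not (-0.38, adjusted p = 0.0572). The XRCC5 difference between the hairpins was no longer called (0.33, adjusted p = 0.064), so none of the 9 was, where 27.9% of tested genes were called in either direction. LIG4 went to -0.10 with shEZH2#3, and RIF1 to 0.35 and 0.48 with shEZH2#1 and shEZH2#3 (adjusted p = 0.205 and 0.0635). When the trend was removed and 1 library was also left out, PRKDC was called in all 9 fits for either hairpin, and XRCC5 with shEZH2#3 in 2 of 9.

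**Figure D3:**
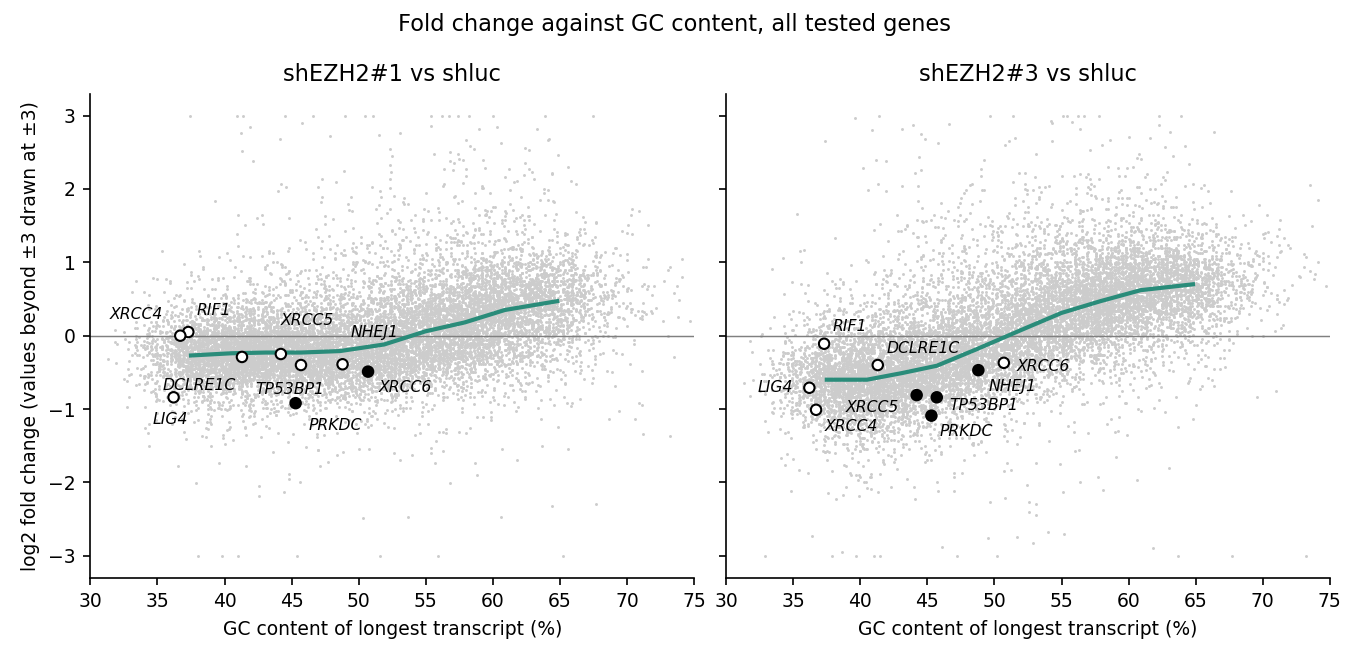
Log2 fold change (vertical axis) against the GC content of the longest transcript (horizontal axis, percent) for tested genes, for shEZH2#1 (left) and shEZH2#3 (right) against shluc; grey points are genes, the line joins the medians of equal-sized GC bins, and circles are the 9 end joining genes, filled where called. PRKDC, at 45.3% GC, lay below the line in both panels.

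Several of the 9 genes share a start region with a gene on the other strand, which gives a local comparison. PRKDC starts 2 bases from MCM4, a subunit of the replicative helicase. MCM4 had 59.3, 56.2 and 53.4 CPM in the shEZH2#1 libraries and 40.0, 50.4 and 38.2 CPM in the shEZH2#3 libraries, against 62.3, 76.6 and 53.1 CPM in the shluc libraries. MCM4 overlapped shluc with shEZH2#1 (-0.18 ± 0.16, adjusted p = 0.451) and fell with shEZH2#3 (-0.58 ± 0.16, adjusted p = 0.00777). The ratio of PRKDC to MCM4 averaged 1.77 ± 0.134 in shEZH2#1 and 2.09 ± 0.323 in shEZH2#3, against 2.88 ± 0.52 in shluc (SD, n = 3 each). The ratio did not overlap shluc for shEZH2#1 (exact permutation p = 0.1, the smallest possible) and just overlapped it for shEZH2#3 (exact permutation p = 0.2).

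XRCC6 starts 23 bases from DESI1, a desumoylating peptidase gene, which had a log2 fold change of -0.11 ± 0.15 with shEZH2#1 (adjusted p = 0.651) and 0.20 ± 0.15 for shEZH2#3 (adjusted p = 0.272). XRCC6 over DESI1 averaged 8.31 ± 0.343 in shEZH2#1 and 7.34 ± 1.21 in shEZH2#3, against 10.9 ± 1.35 in shluc, without overlap with shluc (exact permutation p = 0.1 for either). LIG4 starts 11 bases from ABHD13, which fell with either hairpin (-0.97 ± 0.30, adjusted p = 0.029 for shEZH2#1; -0.90 ± 0.30, adjusted p = 0.0191 for shEZH2#3), calls lost once the GC trend was removed (adjusted p = 0.14 and 0.502). The LIG4 over ABHD13 ratio overlapped in all 3 groups, at 0.541 ± 0.28 in shEZH2#1 and 0.518 ± 0.095 in shEZH2#3, against 0.472 ± 0.145 in shluc. TP53BP1 starts 230 bases from MAP1A, a microtubule-associated protein gene at -0.78 ± 0.27 with shEZH2#1 (adjusted p = 0.0521) and -0.60 ± 0.27 for shEZH2#3 (adjusted p = 0.0742). TP53BP1 over MAP1A averaged 9.55 ± 2.44 in shEZH2#1 and 5.95 ± 0.49 in shEZH2#3, against 6.97 ± 1.44 in shluc, overlapping shluc for both (exact permutation p = 0.3 and 0.4). XRCC4 overlaps TMEM167A at their starts by 366 bases. TMEM167A fell with shEZH2#3 (-0.58 ± 0.18, adjusted p = 0.0145), and stood at 0.03 once the GC trend was removed.

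**Figure D4:**
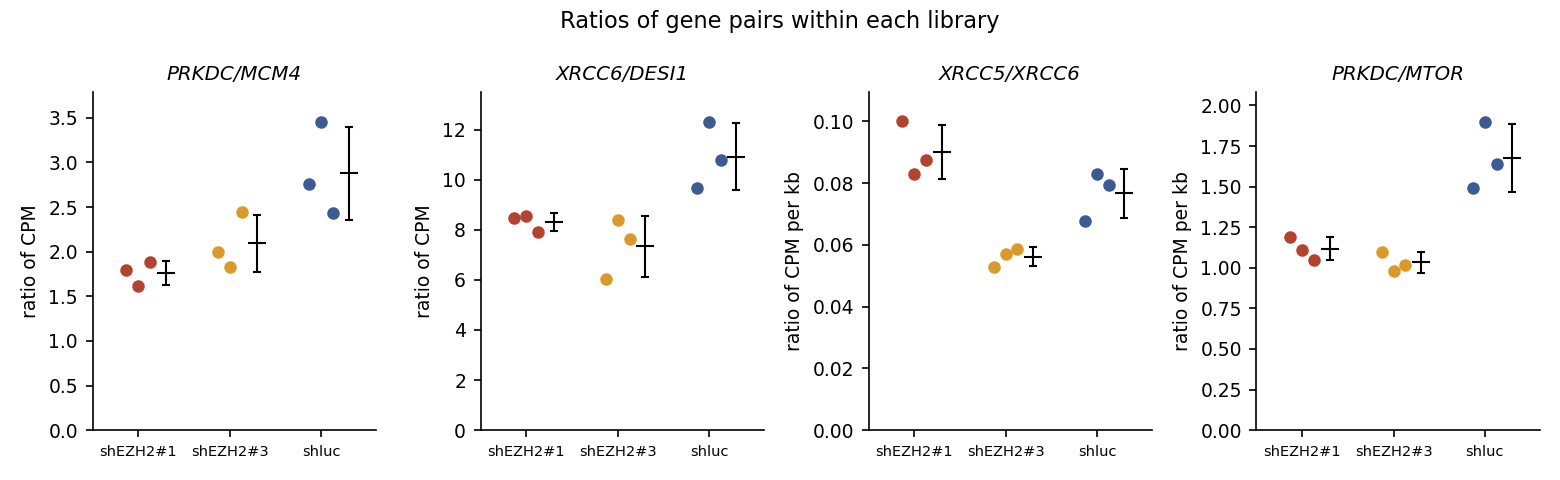
Ratios of gene pairs within each library (vertical axes from 0; CPM for PRKDC/MCM4 and XRCC6/DESI1, CPM per kilobase for XRCC5/XRCC6 and PRKDC/MTOR) in shEZH2#1, shEZH2#3 and shluc; points are libraries and bars the mean and SD of 3. XRCC5/XRCC6 averaged 0.0902 in shEZH2#1 and 0.0561 in shEZH2#3, against 0.0767 in shluc; with the GC and length trend removed, XRCC5 and XRCC6 were at -0.38 and -0.35 on the log2 scale with shEZH2#3.

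Lists of genes that act beside the core pathway were read from the same fit, in which the median of all tested genes was -0.07 with shEZH2#1 and -0.01 with shEZH2#3. Of all tested genes 7.89% were called lower and 11.2% higher with shEZH2#1, and 19.8% lower and 24.4% higher with shEZH2#3. Of 12 accessory and end-processing genes 10 were tested, APLF and DNTT being too low. With shEZH2#1 none fell and 1 rose (median 0.05), and with shEZH2#3 2 fell and 2 rose (median -0.38), counts near the shares of all tested genes. PAXX, a paralogue of XRCC4 and XLF that binds Ku, had 123, 122 and 126 CPM in the shEZH2#1 libraries and 78.7, 95.5 and 76.7 CPM in the shEZH2#3 libraries, against 65.6, 46.2 and 78.0 CPM in the shluc libraries. It rose with shEZH2#1 (log2 fold change 0.96 ± 0.17, adjusted p = 0.000918), stood at 0.40 ± 0.17 with shEZH2#3 (adjusted p = 0.0607), and kept the shEZH2#1 call with the GC trend removed (0.45, adjusted p = 0.00913). POLL, a gap-filling polymerase, rose with shEZH2#3 (0.86 ± 0.18, adjusted p = 0.000822), and TDP2, which frees ends from topoisomerase, fell with it (-0.75 ± 0.24, adjusted p = 0.0151). Both calls were lost with the trend removed (adjusted p = 0.0732 and 0.297). In that fit 1 of the 10 was called lower and 1 higher with shEZH2#1 (median -0.04). With shEZH2#3, 1 was called lower and 0 higher (median -0.25). Of all tested genes, 9.95% and 12.1% were called lower there. The gene called lower was CYREN with either hairpin (-0.58 and -0.63, adjusted p = 0.0033 and 0.00133), not called in the main fit.

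Of 19 genes that act with 53BP1 (shieldin, the CST complex, ubiquitin signalling and H4K20 methylation), 1 fell and 5 rose with shEZH2#1 (median 0.06), and 4 fell and 5 rose with shEZH2#3 (median -0.32). The shEZH2#3 counts are near the 19.8% and 24.4% of all tested genes. MDC1, the reader of phosphorylated H2AX that brings ubiquitin ligases to the break, moved in opposite directions. It had 57.3, 54.5 and 55.3 CPM in the shEZH2#1 libraries and 122, 118 and 109 CPM in the shEZH2#3 libraries, against 95.3, 93.2 and 70.2 CPM in the shluc libraries. MDC1 fell with shEZH2#1 (-0.63 ± 0.15, adjusted p = 0.00617) and rose with shEZH2#3 (0.43 ± 0.15, adjusted p = 0.0238), and both calls held with the GC trend removed (-0.48 and 0.42). TEN1, a CST subunit, had log2 fold changes of 1.10 ± 0.20 with shEZH2#1 (adjusted p = 0.000969) and 0.64 ± 0.20 for shEZH2#3 (adjusted p = 0.0129). NUDT16L1, which binds 53BP1 and keeps it off chromatin, was at 0.82 ± 0.17 (adjusted p = 0.00296) and 0.67 ± 0.17 (adjusted p = 0.00457) with shEZH2#1 and shEZH2#3. KMT5C, an H4K20 methyltransferase, was at 0.76 ± 0.17 (adjusted p = 0.00393) and 0.92 ± 0.17 (adjusted p = 0.000299). With the GC trend removed these 3 kept their shEZH2#1 calls and lost their shEZH2#3 calls, TEN1 standing at -0.00 there. In that fit 2 of the 19 were called lower and 3 higher with shEZH2#1 (median 0.17). With shEZH2#3, 4 were called lower and 2 higher (median -0.03). Of all tested genes, 9.95% and 12.1% were called lower there. DYNLL1 was called lower with both hairpins in that fit (-0.56 and -0.76, adjusted p = 0.000833 and 7.14e-05). ASTE1, a shieldin-associated nuclease gene, fell with shEZH2#3 (-1.25 ± 0.33, adjusted p = 0.00545).

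In alternative end joining, the route that uses short homologies when the core pathway does not act, 1 of 10 genes fell with shEZH2#1 and 5 of 10 fell with shEZH2#3, and none rose (medians -0.29 and -0.56), where 7.89% and 19.8% of tested genes were called lower. The median GC content of these 10 genes was 43.3%, and with the GC trend removed 1 and 3 were called lower (medians -0.17 and -0.23). LIG3, the ligase of that route, fell with shEZH2#1 (-0.55 ± 0.18, adjusted p = 0.0365) and was at -0.29 ± 0.18 with shEZH2#3 (adjusted p = 0.191). POLQ, its polymerase, fell with shEZH2#3 (-1.06 ± 0.37, adjusted p = 0.0265) and was at -0.56 ± 0.36 with shEZH2#1 (adjusted p = 0.293). Both calls were lost with the GC trend removed (adjusted p = 0.212 and 0.254). Of the 5 other kinases of the PRKDC family, 1 fell with shEZH2#1 and 2 fell with shEZH2#3 (medians -0.31 and -0.43). TRRAP, a kinase-dead member of acetyltransferase complexes, fell with shEZH2#1 (-0.88 ± 0.20, adjusted p = 0.00413), and ATR, the kinase of replication stress, fell with shEZH2#3 (-1.21 ± 0.33, adjusted p = 0.00704). ATR lost that call with the GC trend removed (-0.61, adjusted p = 0.137), and TRRAP kept its own (-0.70, adjusted p = 0.00197). Among 5 cofactors that assemble these kinases, 1 fell and 1 rose with shEZH2#1 and 1 rose with shEZH2#3 (medians -0.11 and 0.01). TTI1, of the TTT complex, fell with shEZH2#1 (-0.53 ± 0.16, adjusted p = 0.0253), and the helicase gene RUVBL2 was at 0.63 ± 0.16 (adjusted p = 0.00781) and 0.51 ± 0.15 (adjusted p = 0.0126) with shEZH2#1 and shEZH2#3. With the GC trend removed RUVBL2 was called with shEZH2#1 (0.30, adjusted p = 0.0142) and stood at -0.02 with shEZH2#3. In that fit 3 of the 5 cofactors were called lower and 1 higher with shEZH2#1 (median -0.34). With shEZH2#3, 2 were called lower and 0 higher (median -0.07). Of all tested genes, 9.95% and 12.1% were called lower there. The median GC content of these 5 genes was 56.4%.

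**Figure D5:**
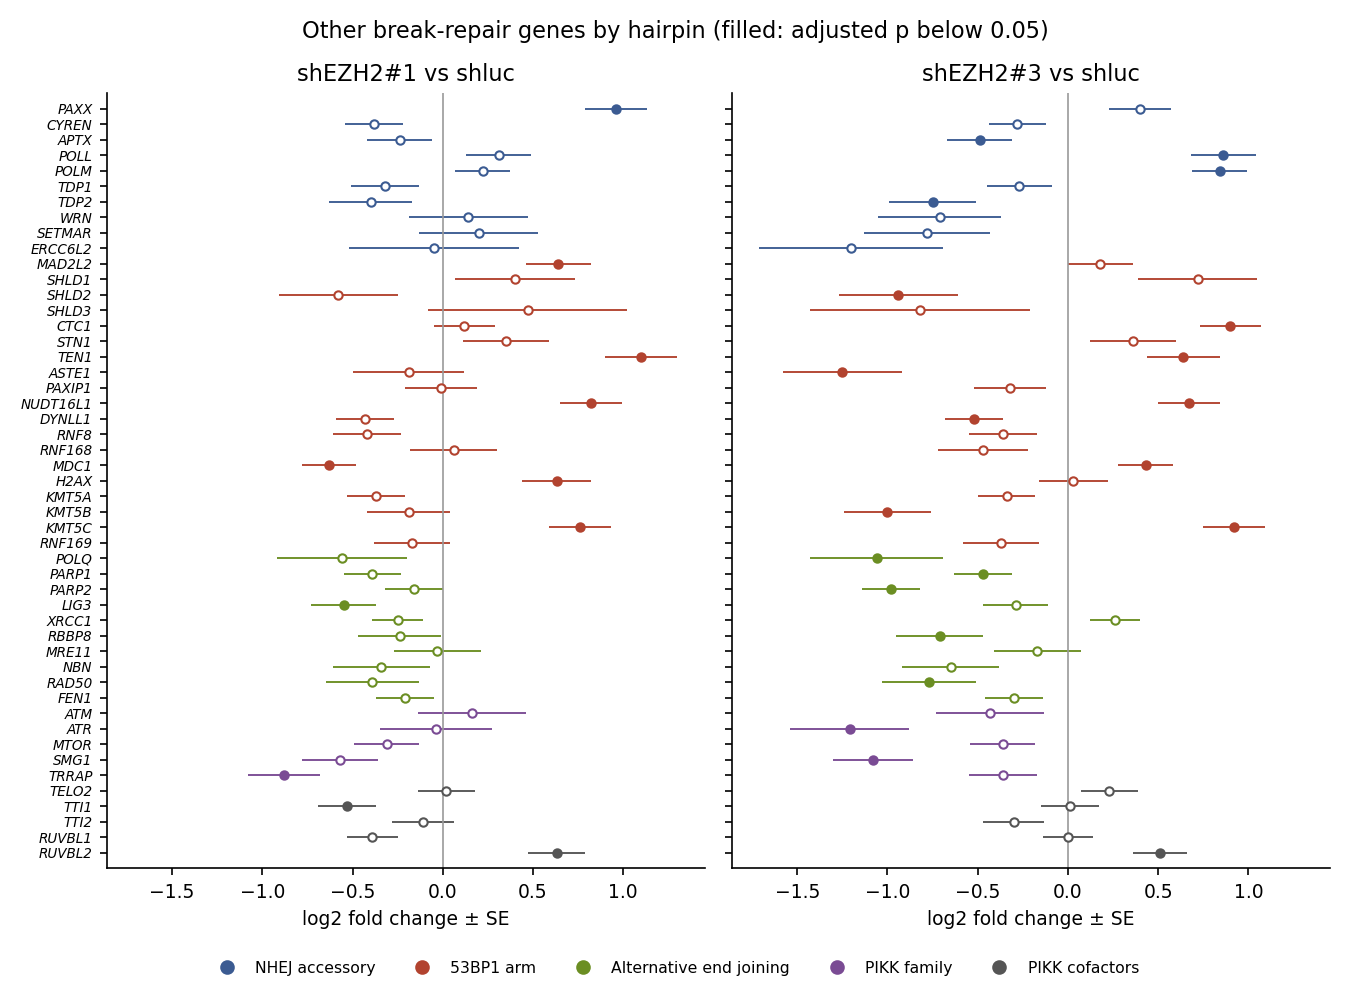
Log2 fold change with its SE (horizontal axis) of the other break-repair genes, coloured by list, for shEZH2#1 (left) and shEZH2#3 (right) against shluc; filled symbols have an adjusted p below 0.05. MDC1 lay at -0.63 on the left and 0.43 on the right, and the alternative end joining genes lay mostly left of 0.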

How the data were processed

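Reads were processed with fastp, HISAT2 and StringTie on GRCh38/hg38, per the submitters' processing notes; their versions, the annotation, the strand setting and the treatment of multi-mapping reads were not stated there. Libraries were stranded (dUTP), per the labels' protocols. The deposited series table holds estimated counts per Ensembl gene, of which 14.7% to 18.5% of the values above 0 per library have decimals; they were rounded to whole numbers. Symbols came from a naming table (51996 of 57905 identifiers) or GENCODE 29 (342), which also gave lengths and GC content. The count test was edgeR 4.0.16 (R 4.3.3) with TMM scaling, filterByExpr, 1 mean per group over all 9 libraries, quasi-likelihood F tests and Benjamini-Hochberg adjustment over 13252 genes, called at adjusted p below 0.05. SE is the log2 fold change over the root of F. A count was worth 0.0399 to 0.0735 CPM. Alternatives were upper quartile or RLE scaling, limma-voom (limma 3.58.1), DESeq2 1.42.0, no filter, a stricter filter (1 CPM), fits of only the groups compared, a replicate block, loess offsets for GC and length (span 0.3), both together, a minimum fold of 1.5, removal of the 2 most abundant unnamed genes, and the omission of each library in turn; the offset with a library left out was added after seeing the data. Ratios were compared by exact two-sided permutation over 20 splits. The code was tested on simulated counts. The 9 genes and the pathway lists were chosen with earlier results of these data known. From the lists, genes called in the same direction with both hairpins and the largest rise and fall per hairpin were named; 1 gene of the accessory list is not reported here. Promoter windows were found for 7 of the 9 genes. The single-library files were not used.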

Additional observations from a re-analysis of the deposited data

Results flagged for a closer look

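Of the break-repair genes named in the results and their neighbours, 8 differed between shEZH2#1 and shEZH2#3 cells. The test was that of the difference itself (edgeR quasi-likelihood, adjusted over all tested genes). Since both are set against the same shluc libraries, this is also the difference between their fold changes. Of all tested genes, 9.46% were called higher in shEZH2#1 and 15.5% lower. List genes were mostly named for a large change with a hairpin, which favours a difference, so the 8 give no rate for the lists. Other list genes called here are not named. In the whole lists, 1 of 10 accessory genes was called higher and 2 lower, and 3 of 19 53BP1 genes higher and 2 lower. Among the cell type markers, CDH1 (1.00, adjusted p = 0.00251), COL1A1 (-1.37, adjusted p = 5.04e-06) and CDH5 (-1.99, adjusted p = 3.34e-07) also differed. XRCC5 was higher in shEZH2#1 by 0.55 on the log2 scale (adjusted p = 0.0141), with no overlap between the 3 libraries of each group. PAXX was higher in shEZH2#1 by 0.56 (adjusted p = 0.0212). POLL was lower in shEZH2#1 than in shEZH2#3, at -0.56 (adjusted p = 0.0267). MDC1 was lower in shEZH2#1, at -1.06 (adjusted p = 4.34e-05), and lay on the other side of shluc in each hairpin group. TTI1 was lower in shEZH2#1, at -0.54 (adjusted p = 0.0177). ASTE1 was higher in shEZH2#1 by 1.06 (adjusted p = 0.0269), ATR by 1.17 (adjusted p = 0.0167) and SUV39H2 by 0.91 (adjusted p = 0.0395). With each library's GC and length trend removed, the differences of XRCC5 (0.33), POLL (-0.30) and SUV39H2 (0.62) were no longer called, while PAXX (0.66), MDC1 (-0.90), TTI1 (-0.54), ASTE1 (0.87) and ATR (0.88) were.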

How the results depend on the processing

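Over all settings, 2069 of the recomputed fold changes of named genes kept direction and side of the threshold, 101 changed sign without a call in either fit, 151 lost a call, 61 gained one and 6 with a call reversed. The last were all with shEZH2#3 under the GC and length offset without and with the replicate block: TEN1 -0.00 and -0.01, RUVBL2 -0.02 and -0.02, TMEM167A 0.03 and 0.03. End joining genes called with shEZH2#1 numbered 1 rather than 2 under RLE, the replicate block and the minimum fold of 1.5; with shEZH2#3 they numbered 5 rather than 4 under upper quartile scaling, DESeq2, limma-voom and the stricter filter, and 3 under the minimum fold. Between the hairpins they numbered 0 rather than 1 under the minimum fold and the GC offset, and 2 under upper quartile scaling and the fit of only the groups compared. Over all genes with shEZH2#3, 3324 were called with the GC offset and 3098 with the block added, against 5861. Leaving out 1 library gave 1 to 2, 3 to 5 and 0 to 2 end joining genes called for shEZH2#1, shEZH2#3 and the hairpins against each other, and 1159 to 3062, 4251 to 5823 and 1956 to 3941 of all genes; the cause was not tested, beyond the fewer libraries in such fits. With shEZH2#3, upper quartile scaling called 2421 genes higher and 3720 lower, against 3237 and 2624, and moved the median of all genes to -0.18 from -0.01. With shEZH2#1 the calls were 1106 higher and 1318 lower with the GC offset and 1707 and 779 without the 2 abundant unnamed genes, against 1478 and 1045. Between the hairpins, upper quartile scaling called 2207 higher and 1404 lower, against 1254 and 2057. Same-numbered libraries shared no deviation (correlations -0.122 to 0.082 over 9 pairs), so the numbers were not taken as pairs. Under the replicate block XRCC6 with shEZH2#1 was at -0.49 (adjusted p = 0.055), and the calls of the other end joining genes held. LIG4, XRCC4 and DCLRE1C, at 3 to 45 counts, had the largest standard errors of the 9 genes and were removed by the stricter filter; the part of depth in their missing calls was not tested.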
